A study of Mus musculus with 6 samples.

Results

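Insulin and insulin-like growth factors reach the inside of a cell through 10 genes that were followed here in primary mouse osteoblasts, the bone-forming cells. They are the receptors Insr and Igf1r, the docking proteins Irs1 and Irs2, the inhibitory adaptors Grb10 and Grb14, the regulatory subunits Pik3r1 and Pik3r3 of phosphoinositide 3-kinase (PI 3-kinase), and the kinases Akt1 and Akt2. Each gene was represented by the array probeset with the highest mean value among those that name that gene alone, which gave a value for 10 of 10 members out of 19938 genes so represented. A probeset is a group of short probes that reports a transcript. Of the members, 7 have 1 such probeset and 3 (Insr, Irs1 and Akt2) have several. The osteoblasts came from wild-type C57BL6/J mice aged 8 to 12 weeks and had been differentiated for 14 days after passage 2 to 3. The sample titles carry the numbers 2, 4 and 5 in each group. Equal numbers were taken to mark cultures of the same mouse, which the titles do not state. Under each number, 1 culture received recombinant murine C5a, the anaphylatoxin released from complement component C5, for 4 h. The other culture stayed unstimulated in the same proliferation medium for 4 h. This gave 3 unstimulated and 3 C5a arrays, and both groups carried the wild-type genotype and no other agent. The cells grew out of pieces of long bone and are not a pure line. The comparison was made within numbers, which are called mice from here on.

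The values are deposited log2 expression values after robust multiarray averaging (RMA), with medians of 5.89 to 5.93 on the 6 arrays. A difference of 1 on this scale is a doubling of signal. The osteoblast label was checked against 8 measured markers. Col1a1 (13.5, 13.8 and 13.4 in mice 2, 4 and 5, mean of both cultures), Col1a2 (13.7, 13.8 and 13.5) and Sparc (14.1, 14.2 and 14.0) were high in all mice. Alpl had 10.4, 11.3 and 9.46, and Ibsp, a protein of mature osteoblasts, had 11.5, 12.7 and 7.29. Sp7 (6.38, 8.49 and 6.53), Dmp1 (6.78, 9.04 and 6.08) and Phex (8.73, 6.70 and 5.38) were lower. In mouse 5 they stood near the array medians, and Sp7 was as near in mouse 2. Acta2 (13.6, 13.5 and 13.5), listed for smooth muscle, and Comp (13.1, 12.5 and 13.2), listed for chondrocytes, were about as high as Col1a1. The other markers of both lists were lower. The 6 markers of smooth muscle and pericytes averaged 8.51, 8.90 and 9.13, and the 5 of chondrocytes 8.42, 8.67 and 8.47. Matn3 of the chondrocyte list (5.02, 5.21 and 5.03) lay below the array medians. So did Rgs5 of the smooth muscle list in mice 2 and 4 (5.29 and 5.41). The 12 measured macrophage markers of 13 listed, which include Cd68 (11.0, 11.4 and 6.64) and Lyz2 (12.9, 13.1 and 9.01), averaged 10.1, 10.4 and 6.38 in mice 2, 4 and 5. The cultures of mice 2 and 4 thus carried macrophage transcripts that those of mouse 5 carried at far lower levels. In bulk RNA, fewer cells of a type and less RNA per cell cannot be told apart. Markers of endothelium (5.24 to 5.30 over the mice) lay below the array medians.

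As background, a receptor bound by insulin or insulin-like growth factor 1 phosphorylates itself and then IRS proteins. Phosphorylated IRS proteins bind the regulatory subunits of PI 3-kinase, whose lipid product brings AKT kinases to the membrane, where they are activated. GRB10 and GRB14 bind the activated receptors and block their kinase. In bone, insulin-like growth factors support the growth and matrix production of osteoblasts. AKT phosphorylates FOXO transcription factors and thereby keeps them out of the nucleus.

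To show the DNA at the start of these genes, the window from 250 bases before to 50 bases after each annotated start (RefSeq, GRCm38.p6) was searched on both strands for TGTTTAC, a motif of FOXO factors, TGANTCA, a motif of AP-1, and TGACGTCA, the cyclic AMP response element. Windows were found for 9 of 10 members, 17 windows in all, with none for Insr. Those of Grb14, Irs1 and Igf1r are printed because these genes had the smallest p, the lowest change and the only positive change among the members, and that of Akt1 because it alone held a motif. Each sequence runs 5′ to 3′ along the gene, and capitals mark the motif.
Grb14 (chr2:65022717-65023016, minus strand): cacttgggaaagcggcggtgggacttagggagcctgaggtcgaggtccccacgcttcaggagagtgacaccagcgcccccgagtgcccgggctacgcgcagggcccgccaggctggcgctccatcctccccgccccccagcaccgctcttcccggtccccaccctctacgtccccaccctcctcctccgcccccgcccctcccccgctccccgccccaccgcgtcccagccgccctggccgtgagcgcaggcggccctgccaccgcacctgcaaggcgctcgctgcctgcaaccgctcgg
Irs1 (chr1:82291390-82291689, minus strand): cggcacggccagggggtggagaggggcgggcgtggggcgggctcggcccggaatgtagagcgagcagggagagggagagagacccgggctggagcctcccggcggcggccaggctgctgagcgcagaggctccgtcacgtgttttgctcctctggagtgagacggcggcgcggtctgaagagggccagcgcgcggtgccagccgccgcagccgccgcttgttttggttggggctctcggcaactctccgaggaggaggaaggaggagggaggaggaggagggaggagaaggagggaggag
Igf1r (chr7:67952007-67952306, plus strand): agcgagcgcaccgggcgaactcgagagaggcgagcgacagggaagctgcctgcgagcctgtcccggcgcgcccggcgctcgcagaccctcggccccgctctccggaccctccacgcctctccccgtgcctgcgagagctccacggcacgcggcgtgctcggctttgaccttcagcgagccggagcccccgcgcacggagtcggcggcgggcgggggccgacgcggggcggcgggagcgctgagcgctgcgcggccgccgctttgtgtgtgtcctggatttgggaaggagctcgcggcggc
Akt1 (chr12:112674835-112675134, minus strand, the first of its windows): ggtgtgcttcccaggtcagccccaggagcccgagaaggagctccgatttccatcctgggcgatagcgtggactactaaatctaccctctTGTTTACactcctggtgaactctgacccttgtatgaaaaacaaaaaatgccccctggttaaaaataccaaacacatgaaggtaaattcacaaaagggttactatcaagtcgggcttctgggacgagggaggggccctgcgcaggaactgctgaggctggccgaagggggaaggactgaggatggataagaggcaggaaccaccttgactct
The FOXO motif stood in this Akt1 window only, and the other 16 windows held none of the 3 motifs. Over all 32851 promoter windows of this length, 3.65% held the FOXO motif, 7.81% the AP-1 motif and 1.79% the cyclic AMP response element. The windows of Grb14, Irs1 and Igf1r were rich in G and C (75.3%, 71.3% and 76.0%, against a median of 52.7% over all windows). Motif matches are a description of these letters and say nothing of binding.

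To determine whether C5a altered the transcripts of the pathway, each culture with C5a was compared with the unstimulated culture of the same mouse. Most members were lower with C5a: 8 of 10 in all 3 mice (17.7% of all probesets and 22.9% of the 19938 genes were). Irs1 (2.28-fold), Grb14 (2.04-fold), Pik3r1 (1.85-fold) and Pik3r3 (1.67-fold) were the furthest. Igf1r was higher in all 3 mice (1.47-fold), as were 18.3% of all probesets and 19.0% of the genes, and Insr went either way. After adjustment over 35556 probesets, 0 of 10 members passed at an adjusted p under 0.05 in limma with the mouse as a block, where 0.0112% of all probesets passed. At an unadjusted p under 0.05, 6 members were lower (8.58% of all probesets, 11.9% of the genes) and 1 was higher (7.61% and 8.26%). The study's methods set thresholds of 0.05 for the unadjusted p and 1.5 for the fold change. At these, 4 members passed as lower (1.57% of all probesets, 2.21% of the genes) and 0 as higher (1.71% and 2.22%). These 4 were Irs1, Grb14, Pik3r1 and Pik3r3.

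Whether a member passed the adjusted threshold depended on which probesets were fitted and adjusted together. Among the 21334 probesets at or above the 40th percentile of mean values, 373 passed (1.75%), and Irs1, Grb14 and Pik3r3 were among them with adjusted p = 0.0468, 0.0286 and 0.0415 from limma. Among the 21789 probesets that name 1 gene, 795 passed (3.65%), again with Irs1 (adjusted p = 0.0360), Grb14 (0.0171) and Pik3r3 (0.0265). Without the mouse as a block, 0 of 10 passed, and the adjusted p of the members ran from 0.212 to 0.979. With the methods' t-test, Grb14 and Pik3r1 passed the methods' thresholds and 0 passed after Benjamini-Hochberg adjustment.

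**Figure D1:**
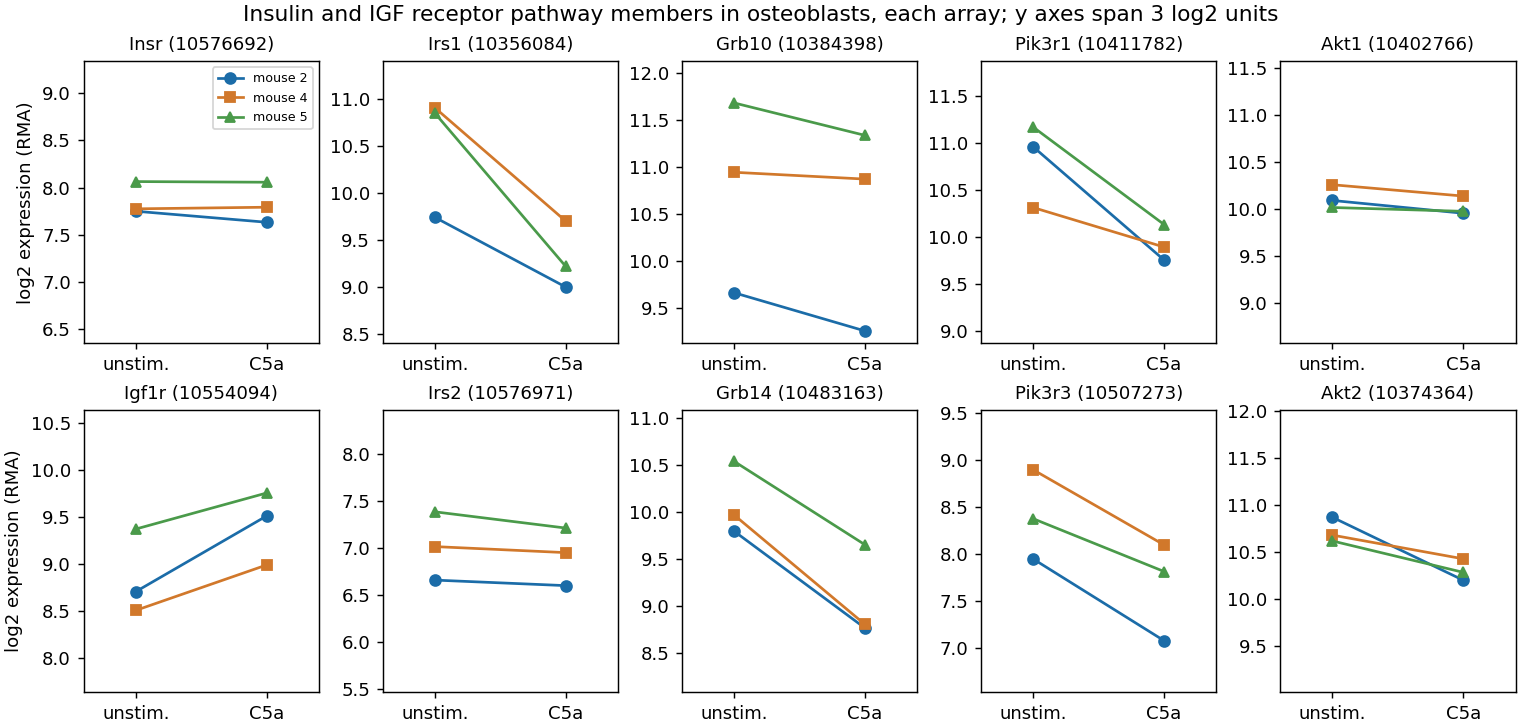
Log2 expression (RMA) of each member in the unstimulated and the C5a culture of mice 2, 4 and 5, each line joining the 2 cultures of 1 mouse; every y axis spans 3 log2 units, and levels cannot be compared between probesets. The lines of Irs1, Grb14, Pik3r1 and Pik3r3 slope down in all 3 mice, those of Igf1r slope up, and those of Insr, Irs2 and Akt1 are nearly flat.

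At the receptor step, the insulin-like growth factor 1 receptor was higher with C5a in all 3 mice, and the insulin receptor changed little. Igf1r (probeset 10554094) had 8.71, 8.51 and 9.37 in the unstimulated cultures of mice 2, 4 and 5, and 9.51, 8.99 and 9.76 with C5a. Each mouse was higher with C5a, by 0.80, 0.48 and 0.38, but the groups overlapped because mouse 5 was already high when unstimulated. The log2 fold change was 0.56 (95% interval 0.28 to 0.83, standard error 0.11), with adjusted p = 0.122 from limma. Insr (10576692) had 7.75, 7.77 and 8.06 unstimulated and 7.63, 7.79 and 8.06 with C5a. Its 2 groups were nearly superimposed, with a log2 fold change of -0.04 (95% interval -0.22 to 0.15, adjusted p = 0.898 from limma). The other Insr probeset (10576696) was higher by 0.08 and in all 3 mice, with adjusted p = 0.676 from limma, so that the probesets of this gene did not share a sign.

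At the docking step, Irs1 was lower with C5a and Irs2 was near its unstimulated level. Irs1, the docking protein through which both receptors signal, had 9.74, 10.90 and 10.85 in unstimulated mice 2, 4 and 5 and 8.998, 9.70 and 9.22 with C5a (10356084). The highest C5a culture lay just under the lowest unstimulated culture, so the groups did not overlap. The estimate of -1.19 (95% interval -1.66 to -0.73, standard error 0.18, adjusted p = 0.102 from limma) was the furthest from 0 among the members, and the change varied between mice from -0.74 in mouse 2 to -1.63 in mouse 5. The other Irs1 probeset (10347792) also had lower values in every C5a culture, with a difference of -0.79 in log2 (adjusted p = 0.103 from limma). Irs2 (10576971), the related docking protein, had 6.66, 7.02 and 7.39 unstimulated and 6.60, 6.95 and 7.21 with C5a. All 3 mice were slightly lower, and the log2 fold change was -0.10 (95% interval -0.28 to 0.08, adjusted p = 0.620 from limma).

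Of the inhibitory adaptors, Grb14 was lower by a similar amount in every mouse. Grb14 (10483163) had 9.79, 9.97 and 10.54 in unstimulated mice 2, 4 and 5 and 8.76, 8.80 and 9.65 with C5a. The groups did not overlap, and the changes of -1.03, -1.16 and -0.89 made it the member with the smallest p, at place 43 of 35556 probesets. Its log2 fold change was -1.03 (95% interval -1.24 to -0.81, standard error 0.08, adjusted p = 0.0704 from limma with the mouse as a block and 0.287 without). Grb10 (10384398), which binds the same receptors, had 9.66, 10.94 and 11.68 unstimulated and 9.26, 10.87 and 11.33 with C5a. The mice stood further apart than the treatments, and the groups overlapped almost completely. Its log2 fold change was -0.27 (95% interval -0.52 to -0.03, adjusted p = 0.261 from limma), with -0.07 in mouse 4.

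Both regulatory subunits of PI 3-kinase were lower with C5a. Pik3r1 (10411782), which encodes the subunit p85α and its shorter forms, had 10.96, 10.31 and 11.17 unstimulated and 9.75, 9.89 and 10.13 with C5a. The groups did not overlap, and mouse 4 changed least (-0.42, against -1.20 and -1.03 in mice 2 and 5). The log2 fold change was -0.89 (95% interval -1.32 to -0.45, standard error 0.17, adjusted p = 0.122 from limma). Pik3r3 (10507273), which encodes the subunit p55γ, had 7.95, 8.90 and 8.38 unstimulated and 7.08, 8.10 and 7.81 with C5a. Here the mice kept their order and the groups overlapped, while the changes of -0.87, -0.80 and -0.56 were close to each other. Its log2 fold change was -0.74 (95% interval -0.97 to -0.51, standard error 0.09, adjusted p = 0.0888 from limma with the mouse as a block and 0.522 without).

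Of the AKT kinases, Akt2 was lower with C5a by more than Akt1. Akt2 (10374364), the form best known for glucose uptake in response to insulin, had 10.87, 10.68 and 10.62 unstimulated and 10.20, 10.43 and 10.29 with C5a. Every C5a culture lay under every unstimulated one, with a log2 fold change of -0.42 (95% interval -0.69 to -0.14, adjusted p = 0.169 from limma). The other Akt2 probeset (10551393) differed by -0.28 (log2, adjusted p = 0.381 from limma) and was lower in 3 of 3 mice. Akt1 (10402766), the form known for growth and survival, had 10.10, 10.26 and 10.02 unstimulated and 9.96, 10.14 and 9.98 with C5a, a log2 fold change of -0.10 (95% interval -0.28 to 0.08, adjusted p = 0.607 from limma). In all, the groups did not overlap for 4 members, each lower with C5a (Irs1, Grb14, Pik3r1 and Akt2; 7.29% of all probesets were lower without overlap and 7.89% higher), and 0 members were higher without overlap.

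**Figure D2:**
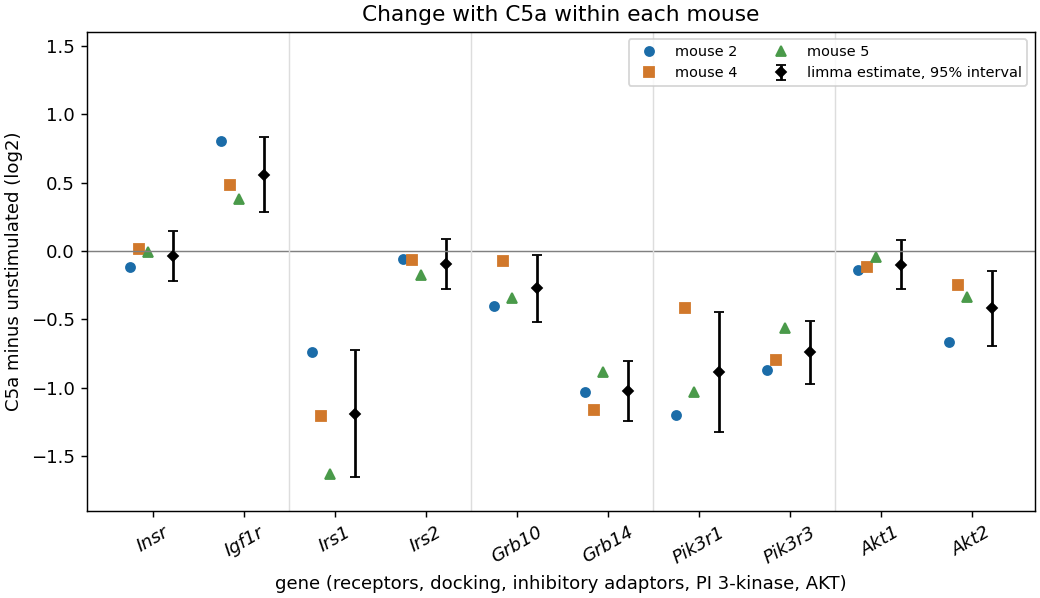
Log2 change with C5a of each member, with points for mice 2, 4 and 5 and black diamonds for the limma estimate with its 95% interval. Grb14 has the narrowest spread among the members far below 0 (-1.16 to -0.89), Irs1 ranges from -1.63 to -0.74, and Igf1r is the member whose points all lie above 0.

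Members that promote signalling and members that inhibit it were then set side by side. The mean log2 change of Grb10 and Grb14 was -0.72, -0.62 and -0.62 in mice 2, 4 and 5, or -0.65 ± 0.06 (SD, n = 3). The mean over the 8 positive members was -0.37, -0.29 and -0.42, or -0.36 ± 0.07 (SD, n = 3), and their single changes ran from -1.19 (Irs1) to 0.56 (Igf1r). Both means lay below 0 in every mouse. The inhibitory mean was further below it, by -0.34, -0.32 and -0.19, or -0.29 ± 0.08 (SD, n = 3). No test was made of this difference, because the members were chosen with results known. The inhibitory adaptors contributed unequally, with -1.03 for Grb14 and -0.27 for Grb10. The median log2 change of the 10 members was -0.35, against -0.01 over the 19938 genes.

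Related genes that share a step differed in their change with the same sign in all 3 mice in 4 of 5 pairs. An exact permutation test over 3 mice cannot go below p = 0.25, so it could not decide whether a pair differed. The pairs are of members chosen with results known. Irs2 stood above Irs1 in its change by 0.68, 1.14 and 1.46 in mice 2, 4 and 5 (1.09 ± 0.39, SD, n = 3). Igf1r stood above Insr by 0.92, 0.47 and 0.39 (0.59 ± 0.29, SD, n = 3). Both differences thus had the same sign in all 3 mice. Grb14 minus Grb10 was -0.62, -1.09 and -0.54 (-0.75 ± 0.30, SD, n = 3), and Akt2 minus Akt1 was -0.53, -0.13 and -0.29 (-0.32 ± 0.20, SD, n = 3). Each of these 4 pairs had the same sign in 3 of 3 mice and a two-sided exact permutation p of 0.25, the smallest that 3 mice allow, or 0.312 adjusted over 5 pairs. Pik3r3 minus Pik3r1 was 0.33, -0.38 and 0.47 (0.14 ± 0.46, SD, n = 3; exact p = 0.75), so the order of these subunits differed between mice.

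**Figure D3:**
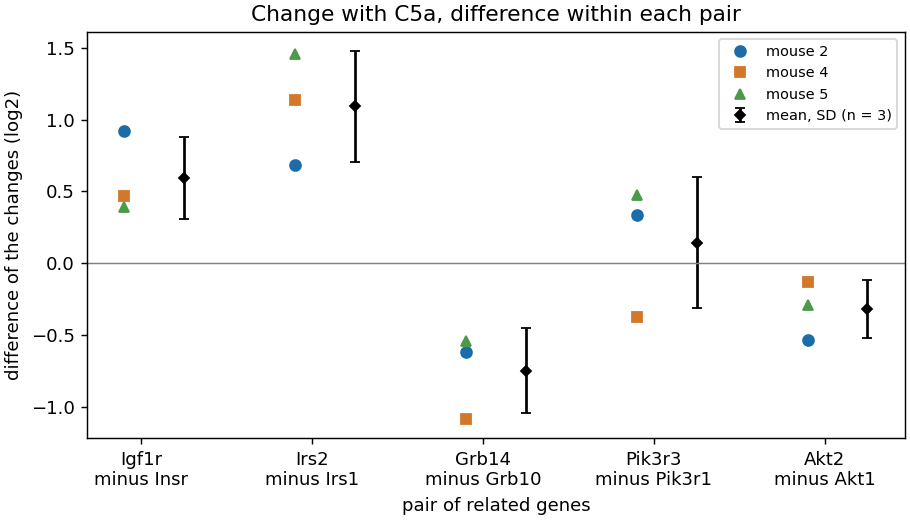
Difference between the log2 changes with C5a of 2 related genes, with points for mice 2, 4 and 5 and black diamonds for the mean with its SD (n = 3). The pairs of receptors and docking proteins lie above 0 and those of the GRB adaptors and AKT kinases below 0 in all mice, while the pair of PI 3-kinase subunits lies on both sides.

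Levels of some members differed between the animals whatever the treatment. In an F-test of the mouse terms in limma, 3 of 10 members passed at an adjusted p under 0.05, as did 888 of 35556 probesets (2.50%). Grb10 differed most, with 9.46, 10.91 and 11.51 in mice 2, 4 and 5 (mean of both cultures, adjusted p = 0.00882 from limma). Grb14 had 9.28, 9.38 and 10.09 (adjusted p = 0.0494) and Pik3r3 had 7.51, 8.50 and 8.10 (adjusted p = 0.0445). Both Grb10 and Grb14 were thus highest in mouse 5, and Pik3r3 was highest in mouse 4. Irs2, with 6.63, 6.98 and 7.30 (adjusted p = 0.0637), and Igf1r, with 9.11, 8.75 and 9.57 (adjusted p = 0.101), did not pass. Without mouse 2, 4 or 5, 0, 1 and 0 members passed, respectively, and with a variance trend and robust estimation 1 passed.

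The macrophage markers differed with the mice too, since 11 of 12 passed the same F-test. They were lowest in mouse 5, where Grb10 and Grb14 were highest. In mice 2 and 4, the mean of the markers was 10.1 and 10.4, Grb10 was 9.46 and 10.91, and Grb14 was 9.28 and 9.38. The mean of the markers ranged from 6.30 to 10.7 over the unstimulated cultures and from 6.47 to 10.2 over the C5a cultures. In mouse 5 several stood near or below the array median, such as Ptprc with 4.84. With C5a their median log2 change was -0.36, -0.46 and 0.17 in mice 2, 4 and 5, and 0 of 12 passed the methods' thresholds. Osteoblast markers differed with the mice as well, since 5 of 8 passed the F-test (Sp7, Alpl, Ibsp, Dmp1 and Phex) and the mean of the 8 was 10.6, 11.3 and 9.45 in mice 2, 4 and 5. In mouse 5, the changes of Irs1 (-1.63), Grb14 (-0.89), Pik3r1 (-1.03), Pik3r3 (-0.56) and Igf1r (0.38) had the same sign as in the other mice. Of the 6 markers of smooth muscle and pericytes, 3 passed the methods' thresholds as higher with C5a, as did 2.22% of the 19938 genes. These were Cspg4 with 1.70, Des with 1.30 and Cnn1 with 0.63 (log2). The rest were Acta2 with 0.11, Rgs5 with 0.03 and Myh11 with -0.16. The mean of the 6 was 8.00 to 9.04 unstimulated and 9.02 to 9.22 with C5a. Among 5 chondrocyte markers, Sox9 passed the methods' thresholds as lower, without overlap (-0.71, adjusted p = 0.0986 from limma), as 2.21% of the genes passed them as lower. Col2a1 of that list was higher in all 3 mice (0.19), and the median of the list was -0.06. Of the 8 osteoblast markers, 0 passed the methods' thresholds, and their median change was -0.03. In all 3 mice 4 were lower (22.9% of the genes were), among them Ibsp (-0.43) and Phex (-0.42). Dmp1 (0.16), Sp7 (0.08) and Sparc (0.02) had positive estimates. The part of macrophages and other cell types in the members' levels and changes was not tested.

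**Figure D4:**
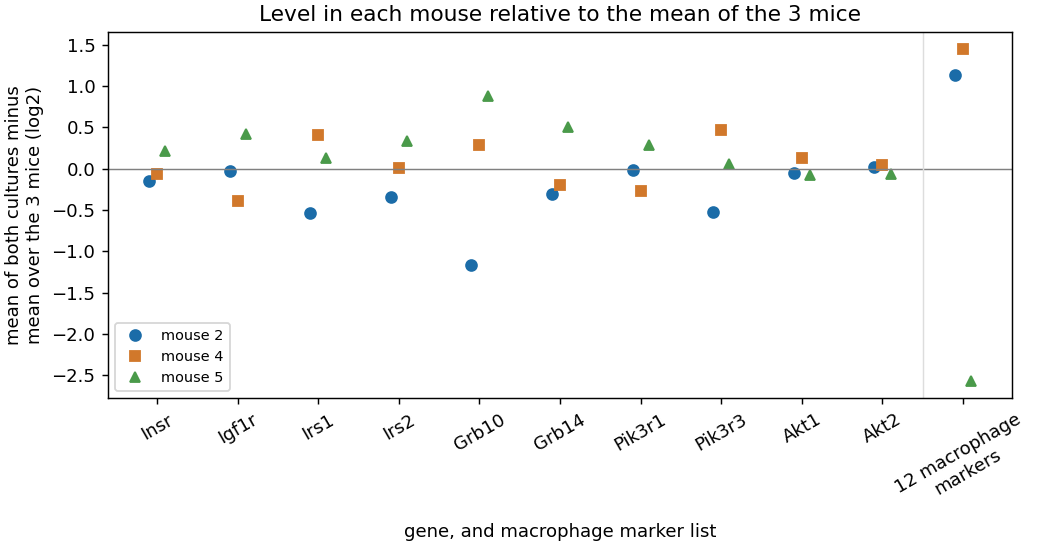
Level of each member and of the mean of 12 macrophage markers in mice 2, 4 and 5 (mean of both cultures), as the log2 difference from the mean of the 3 mice. Grb10 spans the widest range of the members, from 9.46 in mouse 2 to 11.51 in mouse 5, and the macrophage markers are lowest in mouse 5.

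The other genes of the pathway were listed by role, and 92 of 96 listed genes were measured. Of these, 0 passed the adjusted threshold of limma over all probesets, whereas 6 (5 lower and 1 higher) passed with the filter at the 40th percentile and 11 (6 lower and 5 higher) with probesets naming 1 gene. At an unadjusted p under 0.05, 20 were lower and 16 higher, against 11.9% and 8.26% of the 19938 genes. Past the methods' thresholds, 7 were lower and 6 higher, against 2.21% and 2.22% of the genes. Their median log2 change was -0.06. The lists differed in how their genes moved.

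Among 19 genes known to be driven by FOXO factors, 9 were lower and 0 higher at an unadjusted p under 0.05, and 12 were lower in all 3 mice (11.9%, 8.26% and 22.9% of the 19938 genes were, in that order). Their median log2 change was -0.38. Txnip, which restrains glucose uptake, had 10.82, 10.20 and 11.04 unstimulated and 8.997, 8.85 and 9.66 with C5a. Every C5a culture lay below every unstimulated one, and the estimate was -1.52 in log2 (standard error 0.12, adjusted p = 0.0704 from limma). Sesn1, a stress-induced sestrin, followed with -0.73 (adjusted p = 0.0998) and Cdkn1b, an inhibitor of cyclin-dependent kinases, with -0.58 (adjusted p = 0.119). The 4 genes of this list past the methods' thresholds were Txnip, Sesn1, Sesn3 (-0.59) and Gadd45a (-0.62), the last pair named after their values were seen. All were lower, and 2.21% of the 19938 genes were lower past these thresholds.

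Among 14 AKT substrates, 4 were lower and 2 higher at an unadjusted p under 0.05, and 6 were lower and 2 higher in all 3 mice. Over the 19938 genes, 11.9% were lower and 8.26% higher at that p, and 22.9% lower and 19.0% higher in all 3 mice. In the list, the changes furthest from 0 were those of Tbc1d1 and Foxo1, which were higher. Foxo1, a FOXO factor, had 8.24, 7.78 and 7.85 unstimulated and 9.24, 8.20 and 8.83 with C5a. It was higher in all 3 mice, with overlapping groups and an estimate of 0.80 in log2 (standard error 0.14, adjusted p = 0.114 from limma). The other FOXO factors of the list did not rise. Foxo4 had -0.22 (log2, adjusted p = 0.238 from limma) and was lower in all 3 mice, Foxo3 had -0.24 (adjusted p = 0.430) and Foxo6 had -0.03 (adjusted p = 0.928). Tbc1d1, a brake on glucose transporter traffic, had 1.38 (log2, adjusted p = 0.117) and Bad, a cell death factor, -0.26 (adjusted p = 0.180). Of the list, 2 genes passed the methods' thresholds as higher and 0 as lower (2.22% and 2.21% of the 19938 genes). The median of the list was -0.10.

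Other inhibitors of the receptor and of IRS proteins went in both directions, with 1 of 15 lower and 1 higher past the methods' thresholds and a median of 0.02. Past these thresholds, 2.21% of the 19938 genes were lower and 2.22% higher. Socs3, which marks IRS proteins for degradation, had 9.92, 9.65 and 9.95 unstimulated and 9.07, 8.11 and 8.34 with C5a. Its groups did not overlap, and its estimate of -1.33 in log2 (standard error 0.17, adjusted p = 0.0919 by limma) lay further from 0 than that of Grb14. Cblb (0.81, adjusted p = 0.104) and Cbl (0.45, adjusted p = 0.200), ubiquitin ligases for activated receptors, were higher in all 3 mice. Of 9 brakes on the lipid product of PI 3-kinase and on AKT, 1 was past the methods' thresholds, Pik3ip1, an inhibitor of PI 3-kinase, with -0.63 (adjusted p = 0.0869). Phlpp1, a phosphatase of AKT, had 0.54 (adjusted p = 0.183), Inpp5k, a lipid phosphatase, had -0.27 (adjusted p = 0.307), and the median of the list was -0.08.

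Among 19 other receptors and docking proteins, 1 was lower and 2 were higher past the methods' thresholds, with a median of -0.01. Past these thresholds, 2.21% of the 19938 genes were lower and 2.22% higher. Gab1, a docking protein that binds PI 3-kinase, had 8.39, 8.61 and 8.91 unstimulated and 7.77, 7.93 and 8.21 with C5a, which gave -0.67 in log2 (standard error 0.07, adjusted p = 0.0858 from limma). Its C5a cultures lay below every unstimulated one, as for Irs1. Dok1, another docking protein, had 1.01 (adjusted p = 0.0869), and Sh2b2, an adaptor of the insulin receptor, had 0.67 (adjusted p = 0.147). Of 7 other class I PI 3-kinase subunits, 0 passed the methods' thresholds and the median was 0.04. The catalytic subunit Pik3ca had 0.18 (adjusted p = 0.292), the regulatory subunit Pik3r5 had 0.57 (adjusted p = 0.159), and Pik3r2, which encodes p85β, had -0.36 (adjusted p = 0.335). Thus Pik3r1 and Pik3r3 were the regulatory subunits past these thresholds.

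Of 6 measured genes of the kinases that activate AKT, Prr5, a subunit of mTOR complex 2, passed the methods' thresholds as higher with 0.75 (adjusted p = 0.109 from limma). Past these thresholds, 2.22% of the 19938 genes were higher. Mapkap1, another subunit of mTOR complex 2, had -0.22 (adjusted p = 0.225) and Pdpk1, which phosphorylates AKT, had 0.15 (adjusted p = 0.488). The median of the list was 0.16. The ligands showed small changes: Igf1 had -0.17 (adjusted p = 0.403), Igf2 had 0.12 (adjusted p = 0.571) and Ins2 had 0.06 (adjusted p = 0.819). None of these 3 passed at an unadjusted p under 0.05.

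**Figure D5:**
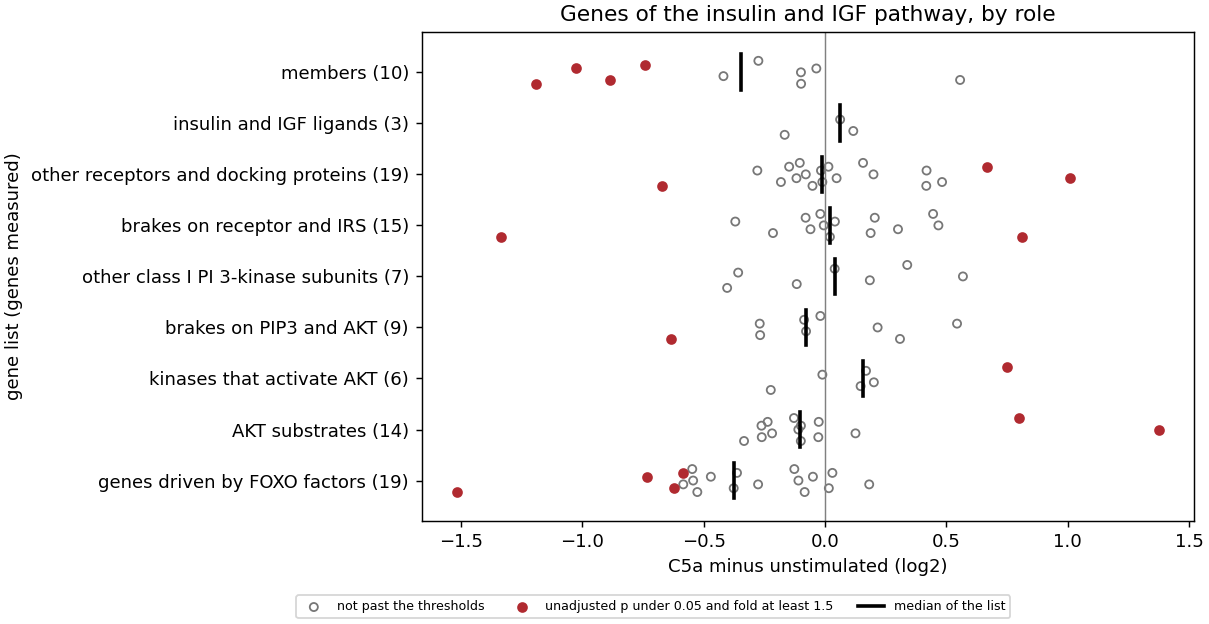
Log2 change with C5a (x axis) of the genes in each list (y axis, with the number measured), filled where the methods' thresholds (unadjusted p of 0.05, fold change of 1.5) were passed, with a bar at the median. The medians of the members (-0.35) and of the genes driven by FOXO factors (-0.38) lie furthest below 0.

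Last, the genes whose values followed Grb14 most closely over the 6 arrays were found from the root mean square difference between values centred per gene. They were Mrps6 (0.162), a mitochondrial ribosomal protein, Trp53inp1 (0.185), a stress protein induced by p53, Ptpn13 (0.186), a tyrosine phosphatase, Setbp1 (0.189) and Slc25a35 (0.191), a mitochondrial carrier. Trp53inp1 had 10.25, 10.64 and 11.19 unstimulated and 9.23, 9.80 and 10.19 with C5a, so that, like Grb14, it was highest in mouse 5 and lower with C5a in every mouse. The log2 fold changes of the 5 genes ran from -0.95 (Trp53inp1) to -0.70 (Slc25a35). These genes were picked for this likeness, so their changes are a description.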

How the data were processed

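Primary osteoblasts under 3 culture numbers, taken as 3 mice, were profiled on 6 Mouse Gene 1.0 ST arrays. The authors selected RNA by its integrity, processed the scans with BRB-ArrayTools and Affymetrix Expression Console, and deposited log2 values normalized by the robust multiarray average. Program versions, and whether arrays of another stimulation time were normalized together with these 6, are not given in the sources used here. Such arrays are not analysed here.

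Of 35556 probesets, 21789 name 1 gene in the platform annotation, 1621 name several and 12146 name none, and all entered the fit. Groups were compared with limma (version 3.58.1, R 4.3.3; lmFit, eBayes and Benjamini-Hochberg adjustment) with the mouse as a block, and the methods' t-test was run as Student's form with equal variances and without pairing, which the methods do not mention. The methods' fold threshold was read as at least 1.5. Equal numbers in the titles were taken to mark the same animal in both groups, which the titles do not state. Deviations from the group means correlated at 0.495 to 0.684 within mice and at -0.446 to -0.0353 between mice. In the blocked fit, a p-value rests on how the change varied over the 3 mice, with a variance that eBayes draws towards that of all probesets. With 1 culture per mouse and treatment, variation between cultures is part of this spread. The number of arrays limits the precision. The fit was tested on simulated data.

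The members and gene lists were chosen with earlier results of these data known. Named were the members, the 3 genes per list with the smallest p, Socs3, and the 5 genes most like Grb14. Sesn3, Gadd45a and the FOXO factors other than Foxo1 were named after their values were seen. Some results are left out. The alternatives are named in the closing section.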

Additional observations from a re-analysis of the deposited data

How the results depend on the processing

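With 3 mice and 2 residual degrees of freedom, adjusted p-values depended on which probesets were fitted and tested together. The 4 probesets past the adjusted threshold became 373 with the filter at the 40th percentile and 795 with probesets naming 1 gene, and 3 members then passed. Both settings changed the prior degrees of freedom of eBayes (2.77, against 3.51 and 3.49) as well as the number of tests, and these were not separated. Both t-tests left 0. Leaving out a mouse gave 0 to 3 probesets, and leaving out 1 array without the block gave 0 to 2. Without the mouse as a block 5 probesets passed, the methods' thresholds were met by 923 probesets instead of 1166, and Pik3r3 no longer met them, which left 3 members instead of 4.

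At the methods' thresholds, the methods' t-test passed 665 probesets, 2 members and 8 listed genes instead of 13, and the paired t-test passed 517 probesets and 8 listed genes. Leaving out a mouse gave 885 to 1754 probesets, 4 to 5 members and 11 to 20 listed genes. Leaving out an array without the block gave 701 to 1314 probesets, 1 to 4 members and 9 to 13 listed genes. The highest counts of probesets and listed genes came without mouse 4. The count of 1 member (Pik3r1) came without the C5a array of mouse 2, and Igf1r joined the others without mouse 4 and without mouse 5.

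Over 18 alternatives per member, 167 results kept their sign and their side of the threshold, 6 newly passed it and 7 changed sign. Settings that changed only the test or the probesets tested left the fold changes as they were, so no sign could change there. The probeset with the largest spread was the one already used for every member, so that setting could not differ either. Leaving out a mouse gave Insr -0.062 to 0.0052, the latter without mouse 2. Without the block and without the unstimulated array of mouse 5, Insr had 0.065, Irs2 0.084 and Grb10 0.18, and without the C5a array of mouse 2 they had 0.062, 0.062 and 0.34. Those fits also carry the level of the mouse whose array is left out. Pik3r3 minus Pik3r1 was -0.022 to 0.40 when a mouse was left out, the former without mouse 5. The difference between inhibitory and positive members was -0.37 with the median over the positive members.

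Between mice, 1 member passed with a variance trend and robust estimation, and leaving out a mouse left 0 or 1 member and 37 to 621 probesets. The cause was not tested in any of these. Median centring and quantile normalization changed no count by more than 1.5 times.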
